A study of Rattus norvegicus with 6 samples.

Results

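The proximal tubule takes up filtered proteins by endocytosis, reabsorbs water and solutes, and makes glucose, creatine precursors and hormones; it begins where the glomerulus, the filter of the nephron, ends. The genes described here are 8 proximal tubule genes that are not solute carriers: the endocytic receptor CUBN, the water channel AQP1, the metabolic enzymes MIOX, GATM, PCK1 and FBP1, the membrane dipeptidase DPEP1 and the transcription factor HNF4A. They were found by symbol in the authors' deposited comparison tables, where rat gene IDs carry human gene symbols. Each symbol paired with 1 ID, so the set holds 8 of the 26319 genes of the count table, and all 8 were among the 13426 genes tested.

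Glomeruli were isolated from Sprague Dawley rats and their messenger RNA was sequenced in 3 groups of 2 libraries. Rats of the AT1R Tg genotype carry a transgene for the angiotensin II type 1 receptor, and this line is known for a nephrin promoter that drives the receptor in podocytes; the labels used here do not state the promoter. AT1R Tg AC1903 rats received AC1903, known to block TRPC5 channels, at a dose that the labels do not state, and were 23.0 weeks (replicate 1) and 20.4 weeks old (replicate 2). AT1R Tg vehicle rats were 20.4 and 17.4 weeks old. WT vehicle rats, of wild type genotype, were labelled as vehicle-treated too and were 20.4 and 21.9 weeks old.

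Libraries held 12325515 to 14230770 expected counts in AT1R Tg rats of either treatment, and 25045081 and 36026772 in WT, so depth differed with genotype. Levels are given as CPM, counts scaled to library size with the trimmed mean of M values (TMM). They are not per length, so they compare libraries for 1 gene and not genes with each other. The tissue label was met by its defining podocyte markers: nephrin (NPHS1) stood at 1480 and 2126 CPM with AC1903, at 2359 and 1270 CPM with vehicle, and at 2328 and 1813 CPM in WT (each pair is replicate 1 and replicate 2). The 8 proximal tubule genes together took 0.216% and 0.213% of the counts with AC1903, 0.212% and 0.326% with vehicle, and 0.173% and 0.0905% in WT. In such bulk RNA, more tubule cells or fragments and more RNA per cell cannot be told apart.

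HNF4A is a nuclear receptor that keeps the proximal tubule programme active. To show the sequence in front of the genes, windows of 300 bases, from 250 before to 50 after each annotated start, were read from RefSeq (build GRCr8) for all 8 genes, which gave 9 windows because Hnf4a has 2 starts. The windows that held an HNF1 half-site, GTTAAT on either strand, are shown with the half-site in capitals (it reads ATTAAC where it lies on the opposite strand), and they belong to the regulator Hnf4a (chr3:172641586-172641885, plus strand), Pck1 (chr3:182348322-182348621, plus strand) and Miox (chr7:122284410-122284709, plus strand).
Hnf4a: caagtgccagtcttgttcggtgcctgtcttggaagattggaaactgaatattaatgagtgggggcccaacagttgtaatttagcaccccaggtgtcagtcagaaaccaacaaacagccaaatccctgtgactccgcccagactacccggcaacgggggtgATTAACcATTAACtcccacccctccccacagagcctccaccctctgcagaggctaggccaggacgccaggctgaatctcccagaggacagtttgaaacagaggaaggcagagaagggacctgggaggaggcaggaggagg
Pck1: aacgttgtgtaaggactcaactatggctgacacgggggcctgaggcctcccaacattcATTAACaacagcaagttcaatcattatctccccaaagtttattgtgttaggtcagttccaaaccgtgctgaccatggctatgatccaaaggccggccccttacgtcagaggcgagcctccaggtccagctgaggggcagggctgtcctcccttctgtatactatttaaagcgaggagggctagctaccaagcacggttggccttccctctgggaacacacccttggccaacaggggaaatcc
Miox: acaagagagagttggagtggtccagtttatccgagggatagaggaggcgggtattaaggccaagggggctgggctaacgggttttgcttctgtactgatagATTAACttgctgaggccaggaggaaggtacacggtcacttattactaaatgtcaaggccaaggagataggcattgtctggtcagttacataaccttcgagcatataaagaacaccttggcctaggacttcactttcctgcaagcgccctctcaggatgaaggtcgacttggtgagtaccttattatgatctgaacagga
The Hnf4a window held the half-site at positions -90 to -85 and -83 to -78 from the start, the Pck1 window at -192 to -187 and the Miox window at -149 to -144. Such a half-site lay in 3 of the 9 windows and in 7.45% of 33469 windows of all genes. The HNF4 core CAAAGTCC lay in 0 of the 9 windows and in 1.40% of all, and the nuclear receptor half-site AGGTCA in 2 of the 9, those of Pck1 and Dpep1, and in 16.2% of all. These are matches of letters on either strand.

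**Figure D1:**
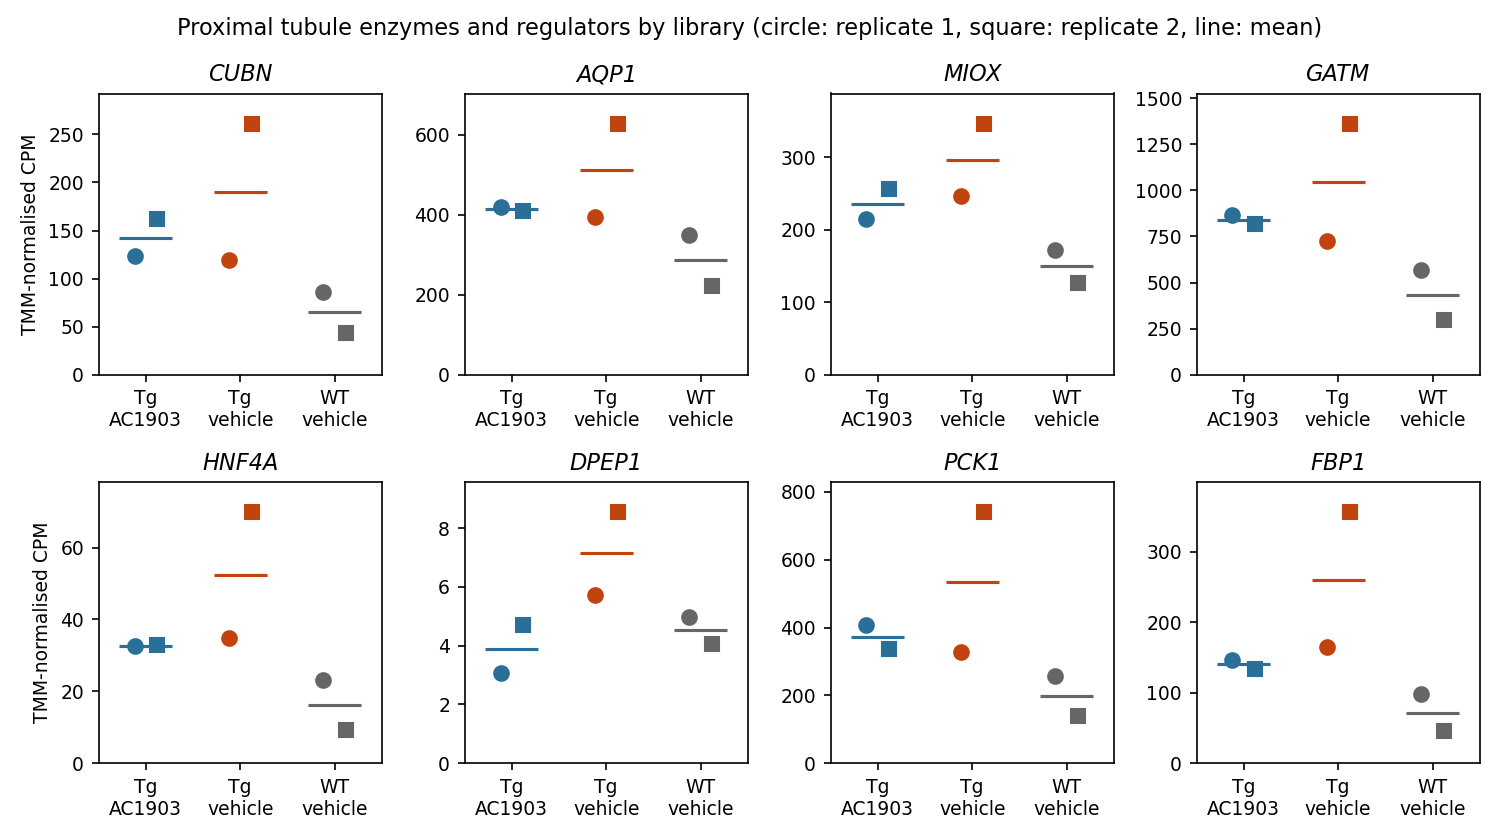
TMM-normalised CPM of the 8 genes in each library (AT1R Tg AC1903, AT1R Tg vehicle and WT vehicle from left to right; circle replicate 1, square replicate 2, line the mean of 2). AT1R Tg vehicle replicate 2 is the highest point in all 8 panels, and WT replicate 2 the lowest in all but DPEP1.

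CUBN encodes cubilin, the receptor that binds filtered albumin, transferrin and vitamin carriers at the brush border. It stood at 124 and 162 CPM with AC1903, at 119 and 261 CPM with vehicle and at 86.4 and 43.5 CPM in WT. Both AT1R Tg groups lay above both WT libraries, and the AC1903 libraries lay between the 2 vehicle libraries. Vehicle averaged 190.02 ± 101 CPM against 65.0 ± 30.3 CPM in WT (SD, n = 2 each), which is 1.55 on the log2 scale with SE 0.41 (edgeR adjusted p = 0.191, DESeq2 adjusted p = 0.00614).

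AQP1, the water channel of the proximal tubule and the thin descending limb, is also known in red cells and some endothelia. It stood at 419 and 409.7 CPM with AC1903, at 395 and 628 CPM with vehicle and at 349 and 222 CPM in WT. The order of libraries was that of CUBN in its ends, but the spread was narrower, with a log2 change of vehicle over WT of 0.84 and SE 0.28 (edgeR adjusted p = 0.259). DESeq2 did not call it either (adjusted p = 0.0607). The 9 genes of the erythroid list summed to 306 and 46.0 CPM with AC1903, to 47.5 and 79.6 CPM with vehicle and to 243 and 140.4 CPM in WT. The 14 of the glomerular endothelial list summed to 9384 and 7301, to 6626 and 7131, and to 9456 and 9387 CPM in the same order. The endothelial list covers glomerular endothelium only, and the part of red cells or endothelium in the AQP1 level was not tested.

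MIOX, the myo-inositol oxygenase that opens inositol breakdown, stood at 215 and 256 CPM with AC1903, at 247 and 346 CPM with vehicle and at 172 and 126 CPM in WT. GATM, which makes the creatine precursor guanidinoacetate, stood at 865 and 816 CPM with AC1903, at 726 and 1362 CPM with vehicle and at 566 and 294 CPM in WT. In both genes the transgenic libraries of either treatment lay above both WT libraries. MIOX had the smallest SE of the set, with a log2 change of vehicle over WT of 0.99 and SE 0.23 (edgeR adjusted p = 0.178, DESeq2 adjusted p = 0.00479). GATM had a log2 change of 1.28 with SE 0.37 (edgeR adjusted p = 0.204, DESeq2 adjusted p = 0.0112).

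PCK1 and FBP1 are the gluconeogenic enzymes phosphoenolpyruvate carboxykinase and fructose-1,6-bisphosphatase. PCK1 stood at 409 and 335 CPM with AC1903, at 329 and 741 CPM with vehicle and at 257 and 138 CPM in WT. FBP1 stood at 147 and 134 CPM with AC1903, at 164 and 356 CPM with vehicle and at 97.8 and 45.4 CPM in WT. The AC1903 libraries lay above vehicle replicate 1 for PCK1 and below it for FBP1, while vehicle lay above WT for both. The log2 changes of vehicle over WT were 1.44 with SE 0.40 for PCK1 (edgeR adjusted p = 0.201, DESeq2 adjusted p = 0.00846) and 1.86 with SE 0.42 for FBP1 (edgeR adjusted p = 0.178, DESeq2 adjusted p = 0.000711). FBP1 thus had the largest log2 change of the 8.

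HNF4A stood at 32.7 and 32.8 CPM with AC1903, at 34.9 and 69.9 CPM with vehicle and at 23.1 and 9.32 CPM in WT. Its groups did not overlap in any comparison. The log2 change of vehicle over WT was 1.69 with SE 0.44 (edgeR adjusted p = 0.189, DESeq2 adjusted p = 0.00664).

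DPEP1 encodes a dipeptidase anchored in the brush border that also hydrolyses leukotriene D4. It was the least counted of the 8, with 37 and 59 counts with AC1903, 81 and 105 with vehicle and 139 and 150 in WT, while every other gene had 344 counts or more in every library. In CPM it stood at 3.08 and 4.71 with AC1903, at 5.73 and 8.54 with vehicle and at 4.99 and 4.06 in WT. AC1903 replicate 1 was the lowest library, and AC1903 overlapped with WT. The log2 change of vehicle over WT was 0.66 with SE 0.38 (edgeR adjusted p = 0.561, DESeq2 adjusted p = 0.606).

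With the transgene, all 8 genes were higher in both vehicle libraries than in both WT libraries, where 20.6% of all genes tested showed that pattern. The median log2 change of the 8 genes was 1.36, beside -0.029 over all genes tested. None of the 8 passed an adjusted p of 0.05 in edgeR, which called 0.0596% of all genes higher, and none passed in limma-voom, which called 0.0372% higher. DESeq2 called 6 of the 8 higher, all but AQP1 and DPEP1, against 3.73% of all genes. An unadjusted edgeR p under 0.05 in the higher direction was found for 7 of the 8, against 8.57% of all genes. In the authors' deposited table the same 6 genes passed an adjusted p of 0.05, with log2 fold changes of 1.02 for MIOX up to 1.89 for FBP1, and 4.01% of the genes in that table passed as higher. The authors' deposited table gave AQP1 an adjusted p of 0.0581 and DPEP1 one of 0.579.

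The size of this difference depended on single libraries. Without vehicle replicate 2 the median log2 change was 0.75, and without vehicle replicate 1 it was 1.78. Without WT replicate 1 the median was 1.88, and without WT replicate 2 it was 0.97. In each of these fits the lone library of a group was taken to vary like the other groups. With age in weeks as a covariate the median was 0.77, and every gene stayed positive in all alternatives that were run.

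**Figure D2:**
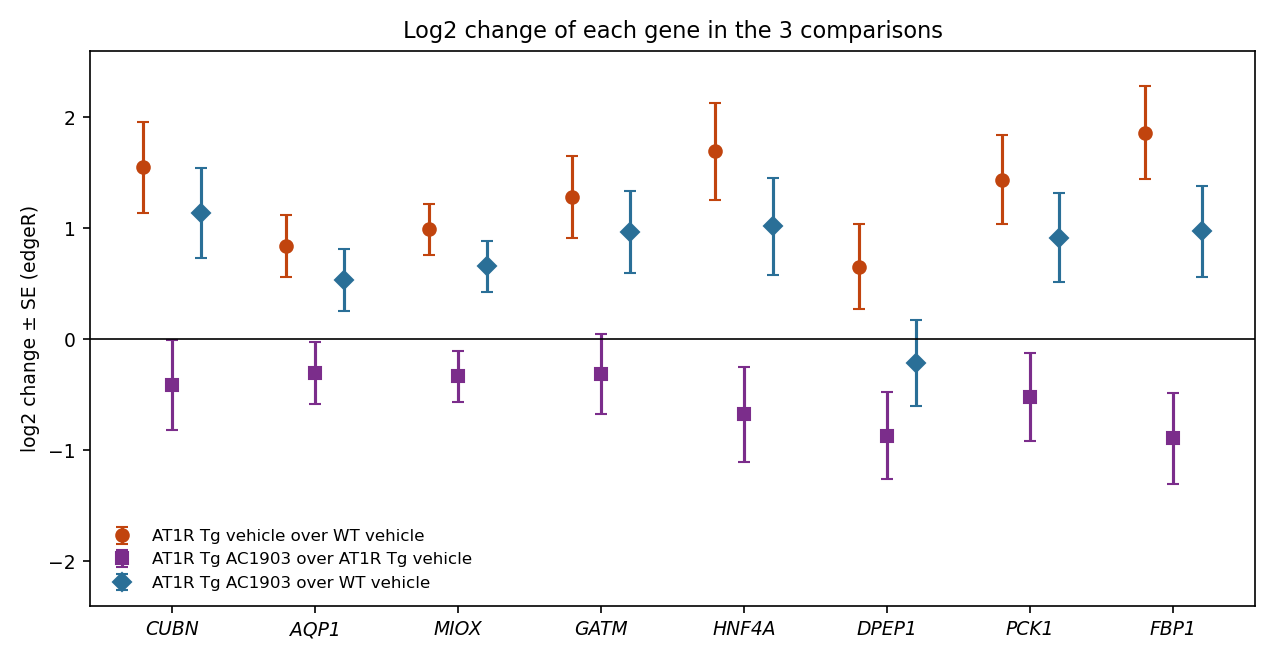
Log2 change (edgeR, bars ± 1 SE) of each gene in the 3 comparisons, which share libraries. Vehicle over WT runs from 0.66 for DPEP1 to 1.86 for FBP1, AC1903 over vehicle from -0.89 to -0.30, and AC1903 over WT is positive for all but DPEP1.

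Against vehicle, the AC1903 libraries had lower averages for all 8 genes, but none was called. The median log2 change was -0.47, beside -0.019 over all genes tested, and the changes ran from -0.89 with SE 0.41 for FBP1 to -0.30 with SE 0.28 for AQP1. No gene had an adjusted p under 0.05 in edgeR, limma-voom or DESeq2, and none had an unadjusted edgeR p under 0.05. The background was 0% of all genes called lower by edgeR, 0% by limma-voom, 0.0596% by DESeq2 and 2.77% at the unadjusted p. In the authors' deposited table none of the 8 passed an adjusted p of 0.05 in this comparison, and 0.00821% of its genes passed as lower. Only FBP1, HNF4A and DPEP1 had both AC1903 libraries below both vehicle libraries, 3 of the 8, where 18.4% of all genes did.

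The lower averages rested on vehicle replicate 2, which lay above both AC1903 libraries for all 8 genes. Against vehicle replicate 1, both AC1903 libraries were higher for CUBN, AQP1, GATM and PCK1, and both were lower for HNF4A, DPEP1 and FBP1. Without vehicle replicate 2 the median log2 change was -0.0080, with 4 genes positive and 4 negative. FBP1 then had a log2 change of -0.24 and CUBN one of 0.25. Without vehicle replicate 1 the median was -0.94. With age as a covariate it was 0.21, with 6 genes positive. Vehicle replicate 2 came from the youngest rat, at 17.4 weeks, and age and this library cannot be told apart.

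**Figure D3:**
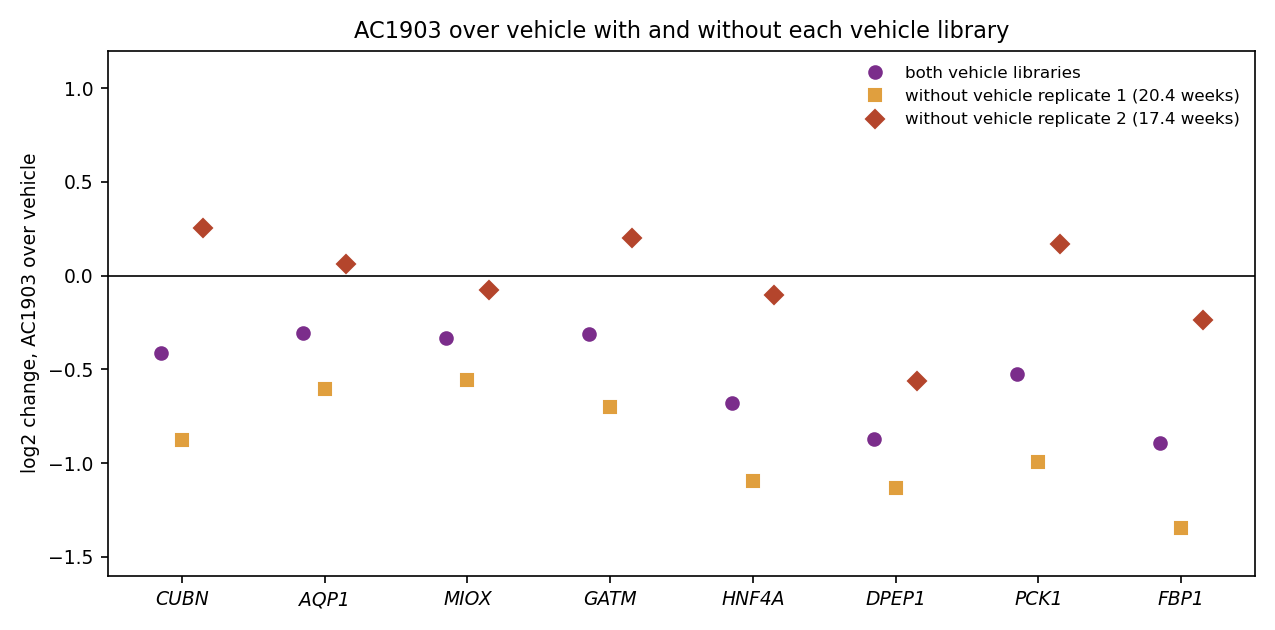
Log2 change of AC1903 over vehicle with both vehicle libraries and with either of them left out. Without the 17.4-week library CUBN, AQP1, GATM and PCK1 turn positive, and DPEP1 has the lowest value at -0.56.

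Against WT, the AC1903 libraries lay higher without overlap for all genes but DPEP1, 7 of the 8, where 24.2% of all genes did. CUBN averaged 143 ± 26.8 CPM with AC1903 and 65.0 ± 30.3 CPM in WT (SD, n = 2 each), a log2 change of 1.14 with SE 0.41 (edgeR adjusted p = 0.398). The median over the 8 genes was 0.94, beside 0.0019 over all genes tested. None passed an adjusted p of 0.05 in edgeR, limma-voom or DESeq2, which called 0.0223%, 0.0372% and 0.879% of all genes higher. At an unadjusted edgeR p under 0.05, 6 of the 8 were higher, against 6.92% of all genes. The median was 1.47 without WT replicate 1 and 0.51 without WT replicate 2.

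A rat of 20.4 weeks was present in every group, which allowed the values to be read at 1 age, with 1 library each and no test. FBP1 stood at 134 CPM with AC1903, at 164 CPM with vehicle and at 97.8 CPM in WT, and HNF4A at 32.8, 34.9 and 23.1 CPM in the same order. Vehicle over WT was between 1.13-fold for AQP1 and 1.68-fold for FBP1 and above 1 for all 8 genes. AC1903 over vehicle was between 0.815-fold for FBP1 and 1.36-fold for CUBN. AC1903 over WT was above 1 for all but DPEP1, which had 0.945-fold.

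The 2 AC1903 libraries lay closer together than the 2 libraries of either other group for 7 of the 8 genes. The share of all genes tested with this pattern is not given here, and these 7 genes went up and down together across libraries. DPEP1 was the exception, with a ratio of the higher to the lower library of 1.53-fold in AC1903, 1.49-fold in vehicle and 1.23-fold in WT. This ratio started at 1.00-fold for HNF4A in AC1903. Between the vehicle libraries this ratio was 1.40-fold for MIOX up to 2.25-fold for PCK1, and between the WT libraries 1.23-fold for DPEP1 up to 2.48-fold for HNF4A.

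All genes but DPEP1 went up and down together across libraries. Pearson's r of log2 CPM over the 6 libraries was between 0.943 and 0.993 for the 21 pairs without DPEP1, and between 0.492 and 0.635 for the 7 pairs with it. These values describe 6 libraries that share their scaling. Averaged over the 8 genes, each centred on its own mean, the log2 level was 0.066 and 0.15 with AC1903, 0.14 and 1.03 with vehicle and -0.28 and -1.11 in WT. Vehicle replicate 1 and both AC1903 libraries thus stood within 0.1 log2 units of each other, and vehicle replicate 2 and WT replicate 2 stood apart from the rest at opposite ends. Vehicle replicate 2 was the highest library for all 8 genes, as it was for 21.1% of all genes tested, and WT replicate 2 the lowest for 7 of the 8, as it was for 19.9%. The pattern of vehicle replicate 2 highest and WT replicate 2 lowest was found for 7 of the 8 genes and for 8.95% of all genes tested.

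The genes differed in how far they moved. The highest library exceeded the lowest by 7.84-fold for FBP1, 7.50-fold for HNF4A, 6.0-fold for CUBN, 5.37-fold for PCK1 and 4.63-fold for GATM. For AQP1 the ratio was 2.83-fold, for DPEP1 2.78-fold and for MIOX 2.74-fold. Ratios of counts between genes of the same library show the difference: FBP1 had 0.350 and 0.327 counts per count of AQP1 with AC1903, 0.416 and 0.567 with vehicle and 0.280 and 0.204 in WT. Per count of HNF4A, FBP1 had 4.49 and 4.09 counts with AC1903, 4.72 and 5.09 with vehicle and 4.23 and 4.87 in WT, a ratio with a far narrower range. Per count of PCK1, FBP1 had 0.359 and 0.399 counts with AC1903, 0.500 and 0.481 with vehicle and 0.381 and 0.329 in WT, so that both vehicle libraries lay above the other 4.

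**Figure D4:**
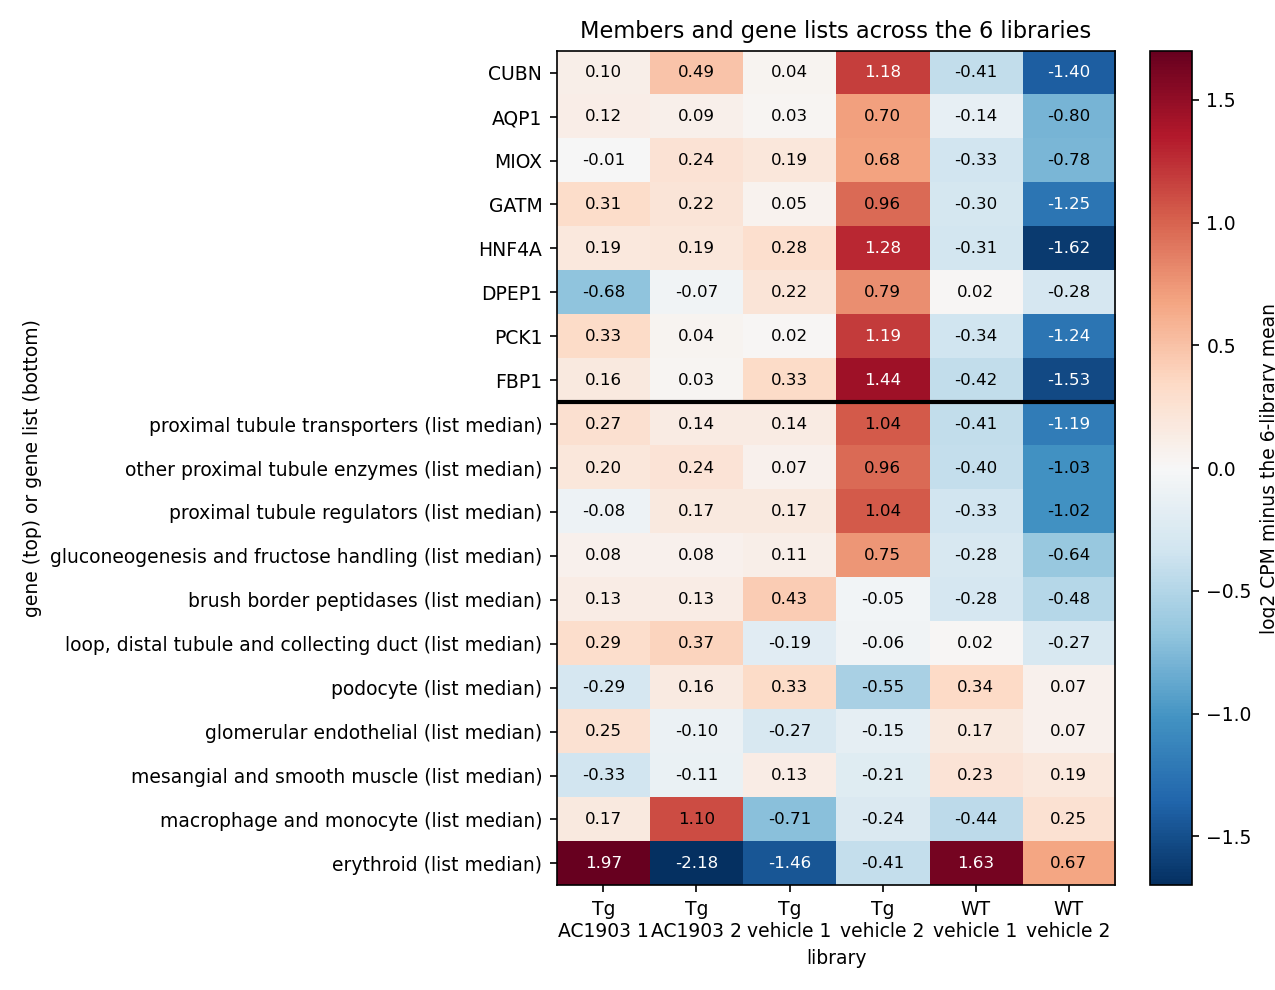
Log2 CPM minus the mean over the 6 libraries for the 8 genes (above the line, no prior count). Below the line is the list median of log2 CPM with a prior count of 2, centred in the same way. The column of vehicle replicate 2 is high and that of WT replicate 2 low for the members and the proximal tubule transporters, at 1.04 and -1.19 for that list, while the loop and distal list stays between -0.27 and 0.37.

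Other genes of the same pathways were read from lists, beside the 3.73% of all genes that DESeq2 called higher in vehicle over WT. Among the partners of cubilin in endocytosis, of which LRP2 (megalin) is not analysed here, 4 of 5 genes were positive in vehicle over WT with a median log2 change of 0.64, and DESeq2 called 2 higher. AMN, which anchors cubilin in the membrane, stood at 37.7 and 19.9 CPM with AC1903, at 27.8 and 50.03 CPM with vehicle and at 18.8 and 13.8 CPM in WT. The endosomal chloride transporter CLCN5 had a log2 change of 1.76 with SE 0.51 (DESeq2 adjusted p = 0.0347). DAB2, the adaptor of megalin, had one of 0.64 with SE 0.28 and passed in neither tool.

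Of the gluconeogenesis and fructose genes beside PCK1 and FBP1, 7 of 7 were positive with a median of 0.91, and DESeq2 called 5 higher. Pyruvate carboxylase, PC, stood at 116 and 121 CPM with AC1903, at 105 and 199 CPM with vehicle and at 74.9 and 51.1 CPM in WT. Fructokinase, KHK, had a log2 change of 0.89 with SE 0.20 (DESeq2 adjusted p = 0.00771). These genes had the order of libraries seen in PCK1 at its ends.

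Genes of inositol, glucuronate and creatine metabolism beside MIOX and GATM were positive in 8 of 11 cases, with a median of 0.61, and DESeq2 called 4 higher. XYLB and DCXR, which act after MIOX in the glucuronate-xylulose route, lay higher in vehicle by 1.13 (SE 0.26) and 1.28 (SE 0.28) on the log2 scale. SLC6A8, the creatine transporter, stood at 205 and 201 CPM with AC1903, at 179 and 285 CPM with vehicle and at 132 and 99.1 CPM in WT. Brush border peptidases beside DPEP1 were positive in 7 of 9 cases, with a median of 0.65, and DESeq2 called 4 higher. Aminopeptidase N, ANPEP, stood at 46.1 and 47.2 CPM with AC1903, at 39.9 and 98.0 CPM with vehicle and at 33.2 and 23.2 CPM in WT, and did not share the low place of DPEP1 in AC1903 replicate 1. The list as a whole did not peak in vehicle replicate 2 as ANPEP did: the median of its 9 genes, each centred on its own mean over the 6 libraries, was 0.13 and 0.13 with AC1903, 0.43 and -0.052 with vehicle and -0.28 and -0.48 in WT on the log2 scale. Its summed level was 2559 and 2464 CPM in the vehicle libraries.

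Regulators beside HNF4A were positive in 10 of 10 cases with a median of 1.31, and DESeq2 called 5 higher. NR1H4, the bile acid receptor, stood at 10.97 and 17.7 CPM with AC1903, at 13.5 and 17.9 CPM with vehicle and at 7.42 and 5.99 CPM in WT. PDZK1, a scaffold of brush border transporters, followed HNF4A at its ends with 240 and 247 CPM with AC1903, 217 and 504 CPM with vehicle and 163 and 96.7 CPM in WT.

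The other aquaporins were positive in 6 of 6 cases, with a median of 0.43, and neither edgeR nor DESeq2 called any; 2 had an unadjusted edgeR p under 0.05. AQP7, of the late proximal tubule, stood at 29.2 and 16.6 CPM with AC1903, at 18.8 and 52.8 CPM with vehicle and at 18.5 and 9.08 CPM in WT. The 13 other proximal tubule enzymes were all positive with a median of 1.28, and DESeq2 called 9 of them. The 15 proximal tubule transporters were all positive with a median of 1.37, and DESeq2 called 12 of them. Of all genes tested, it called 3.73% higher. GLYAT, glycine N-acyltransferase, stood at 316 and 353 CPM with AC1903, at 332 and 570 CPM with vehicle and at 189 and 144 CPM in WT. It had the smallest p of the enzymes, with a log2 change of 1.44 and SE 0.27 (edgeR adjusted p = 0.157, DESeq2 adjusted p = 7.14e-05). In AC1903 over WT, DESeq2 called GLYAT and UPB1 of these enzymes and SLC13A1 and SLC5A12 of the transporters. It called 0.879% of all genes higher there. In no list did edgeR call a gene in any comparison. In vehicle over WT its unadjusted p was under 0.05 for 12 of the 13 enzymes and 14 of the 15 transporters, all higher. Of all genes tested, 8.57% were higher at that unadjusted p.

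Markers of cells next to the proximal tubule had other patterns. The 19 genes of the loop, distal tubule and collecting duct list summed to 852 and 793 CPM with AC1903, to 548 and 578 CPM with vehicle and to 583 and 499 CPM in WT. Their median log2 change was 0.069 for vehicle over WT, where 10 were positive and 9 negative, and 0.56 for AC1903 over vehicle, where 14 were positive. The 14 podocyte markers summed to 11025 and 14424 CPM with AC1903, to 18138 and 9678 CPM with vehicle and to 16771 and 14383 CPM in WT. The library with the highest level of the 8 genes, vehicle replicate 2, was thus the one with the lowest podocyte sum. The summed CPM of the 8 genes was 20.1% and 14.9% of the podocyte sum with AC1903, 11.1% and 39.0% with vehicle and 9.28% and 6.14% in WT. Transcripts of the mitochondrial genome made up 34.0% and 32.0% of the counts with AC1903, 25.3% and 40.5% with vehicle and 22.3% and 28.3% in WT. The 10 macrophage and monocyte markers summed to 354 and 870 CPM with AC1903, to 220 and 289 CPM with vehicle and to 241 and 404 CPM in WT. LYZ made up most of each macrophage and monocyte sum. It stood at 215 and 661 CPM with AC1903, at 139 and 188 CPM with vehicle and at 157 and 267 CPM in WT. The part of tubule content, podocyte content and mitochondrial share in these differences was not tested. No marker with a gene ID was at 0 in all libraries of any list.

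Many genes ran in parallel with the members. Among 8227 other genes with a symbol and at least 10 CPM on average, 343 had a Pearson's r over 0.95 with the mean of the 8 genes across the 6 libraries. Among the closest were SLC6A19, PROSC, ALDH8A1, IGSF11, KIAA1919, HAO2 and SLC26A1, each with r between 0.997 and 1.00. SLC6A19, the neutral amino acid transporter of the brush border, stood at 56.1 and 65.2 CPM with AC1903, at 64.2 and 160 CPM with vehicle and at 39.6 and 16.1 CPM in WT. The single closest gene was RAB17 for CUBN, ENPP5 for AQP1, ABAT for MIOX, LETM1 for GATM, SLC26A1 for HNF4A, CES2 for PCK1 and GLYCTK for FBP1, with r between 0.997 and 1.00, and USP10 for DPEP1, with r of 0.981. Only 13 genes had r over 0.95 with DPEP1, against 266 with MIOX and 342 with PCK1. Over 6 libraries these values describe parallel levels and carry no test.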

How the data were processed

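Expected counts per gene were deposited for 6 libraries in RSEM's gene-level output. The submitters' processing notes name RSEM 1.3.0, STAR 2.5.2b and, as build, Rnor_5.0. Libraries came from a stranded messenger RNA kit per the labels' protocols. No annotation release is given in the sources used here. Log2 fold changes and adjusted p-values of 2 comparisons were deposited by the authors, per the file headers, with no tool named.

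Expected counts were rounded to whole numbers and filtered with filterByExpr by group, which left 13426 of 26319 genes. All 6 libraries entered a two-sided quasi-likelihood fit in edgeR 4.0.16 (R 4.3.3), with TMM scaling, 3 residual degrees of freedom and Benjamini-Hochberg adjustment over all genes tested at 0.05. An SE is the log2 change divided by the root of the F statistic. DESeq2 1.42.0 and limma-voom (limma 3.58.1) were run beside it. The steps were tested on simulated data. The ages show that the 2 samples of each group came from different rats.

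The 8 genes and all gene lists were chosen with earlier results of these data known, so the lists carry no test of their own. Named genes of a list are among its 4 of smallest edgeR p in vehicle over WT, UPB1 and LRP2 were named beside a count, and NPHS1 as the check of the tissue; some genes that the rule names are not reported here. Genes alike were ranked by Pearson's r of log2 CPM (prior count 2) over the 6 libraries. Promoter windows come from RefSeq, build GRCr8, matched by symbol. The alternatives were other scalings, filters, fits of the 2 groups alone, age, the replicate number and each library left out.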

Additional observations from a re-analysis of the deposited data

How the results depend on the processing

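With all 6 libraries, the count of members called in vehicle over WT was 0 in edgeR and 6 in DESeq2. It was 7 in edgeR without a filter on low counts. The edgeR count was not 0 in every fit with a library left out. Such a fit leaves 1 library in a group, so that count is not given here. DESeq2 called 3.73% of all genes higher. The share of all genes called without the filter is not given here, so the 7 cannot be judged against it. The median log2 change was 0.77 with age as a covariate and between 0.75 and 1.88 with a library left out. In AC1903 over vehicle, the count was 0 under every alternative run; the median was 0.21 with age as a covariate and between -0.94 and -0.0080 with a library left out. With age, CUBN, AQP1, MIOX, GATM, HNF4A and PCK1 turned positive at 0.62, 0.20, 0.12, 0.40, 0.22 and 0.28. With a library left out, CUBN ranged from -0.88 to 0.25, AQP1 from -0.60 to 0.060, GATM from -0.70 to 0.20 and PCK1 from -0.996 to 0.17. In AC1903 over WT, 5 members were called without a filter, again with no share of all genes to set beside them. With a library left out the median was 0.51 to 1.47 and DPEP1 -0.56 to 0.049. The cause of these shifts was not tested. Over 16 alternatives, 109 single-member values kept their direction and side of the threshold in vehicle over WT, and the rest crossed the threshold. In AC1903 over vehicle 118 kept both and 10 reversed direction. In AC1903 over WT 122 kept both, 5 crossed the threshold and 1 reversed. With the replicate number as a block, 0 members were called and the medians were 1.37, -0.46 and 0.94. Same-numbered libraries of different groups did not deviate together (r of -0.041, 0.0046 and -0.020 across genes), so the number was not taken as a pairing. Counts of 37 to 150 limit what can be said of DPEP1.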
